A study of Caenorhabditis elegans with 2 samples.

Results

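A divergent promoter is the stretch of DNA from which a pair of neighbouring genes on opposite strands is read outwards, away from each other. Peaks of the zinc finger protein ZTF-11 at such promoters are described here for the autosomes of C. elegans. A peak was taken when its summit fell in the promoter windows of at least 2 protein-coding genes on opposite strands, each window reaching from 1000 bp before to 200 bp past an annotated transcript 5′ end. Summits within 500 bp of a tRNA, snoRNA or snRNA gene were left out, which removed 16 further peaks at divergent promoters. The rule gave 659 peaks, of 9760 on the 5 autosomes and 12024 in the whole pooled list.

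The study mapped where ZTF-11 sits on chromatin by chromatin immunoprecipitation and sequencing (ChIP-seq) in whole embryos of mixed stages, with males and females pooled. Its design held 1 group of 2 libraries, labelled as biological replicates, from strain OP236 (unc-119(ed3) III; wgIs236). These worms carried eGFP-tagged ZTF-11 from the integrated transgene wgIs236 in an unc-119 mutant background, so that both libraries share the transgene and the mutation. A control is named in the labels and was not analysed here, and the stages, cells and tissues that contributed to each peak cannot be told apart in whole embryos.

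ZTF-11 belongs to the Myt1 family, zinc finger proteins best known for repressing genes during the formation of neurons. Vertebrate Myt1 proteins recognise short DNA sites with the core AAGTT. In the compact worm genome many genes lie head to head and share the space between their 5′ ends, so that a peak there cannot be given to either gene alone. Most worm transcripts are trans-spliced, which removes the first bases of the RNA, so that an annotated 5′ end can lie downstream of the place where transcription starts.

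The reference sequence around 7 of the 12 strongest such peaks outside the one autosome whose sequence is not printed here is shown first, since the capitals mark the short words to which the account of sequence returns. Each line holds 101 bases, the summit with 50 bp on each side, on the plus strand of ce11 as given by the RefSeq genome. Names give the gene on the minus strand before the gene on the plus strand. Capitals mark the hexamer GGGCGG, the palindrome TTGCAA, the word GTGCGC, the palindrome GCGCGC, and the octamer GGACACAT of histone pairs, all on either strand, and overlapping matches run together. The 7 were picked after the sequences of all 12 had been read, 4 to show the GC-rich words and 3 because they lie between pairs of histone genes.
ecps-1/atx-2, chrIII:10461276-10461376: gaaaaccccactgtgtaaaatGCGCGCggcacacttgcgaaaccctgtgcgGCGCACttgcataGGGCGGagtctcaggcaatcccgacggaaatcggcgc
K01G5.10/tasp-1, chrIII:10759190-10759290: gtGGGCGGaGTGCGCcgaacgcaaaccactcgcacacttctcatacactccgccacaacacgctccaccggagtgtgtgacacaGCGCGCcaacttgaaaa
B0495.9/sre-1, chrII:7708728-7708828: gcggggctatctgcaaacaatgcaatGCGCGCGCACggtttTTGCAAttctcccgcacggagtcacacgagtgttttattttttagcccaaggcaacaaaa
Y22D7AL.10/hsp-60, chrIII:1619107-1619207: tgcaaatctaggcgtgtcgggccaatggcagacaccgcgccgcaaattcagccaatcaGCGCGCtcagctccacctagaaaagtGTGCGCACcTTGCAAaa
his-31/his-32, chrIV:8334066-8334166: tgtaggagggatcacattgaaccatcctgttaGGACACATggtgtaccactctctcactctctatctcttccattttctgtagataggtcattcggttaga
his-4/his-3, chrV:16040610-16040710: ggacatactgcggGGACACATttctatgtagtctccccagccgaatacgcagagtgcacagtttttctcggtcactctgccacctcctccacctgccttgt
his-60/his-59, chrIV:7488069-7488169: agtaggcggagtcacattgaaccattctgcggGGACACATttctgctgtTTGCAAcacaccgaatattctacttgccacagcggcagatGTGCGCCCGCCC

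Divergent promoters held a larger share of the autosomal peaks than of the autosomal bases, and a larger share still of the strongest peaks. The stretches that meet the rule cover 2.64% of the autosomal bases and held 6.75% of the autosomal peaks, 2.56 times their share of bases. Promoters with windows of genes on 1 strand only (here 1-strand promoters) cover 24.1% of the bases and held 29.3% of the peaks, 1.22 times their share. Bases in no promoter window cover 72.3% and held 60.9%. Peak density was 303 per Mb at divergent promoters, against 144 per Mb at 1-strand promoters and 99.6 per Mb outside promoter windows. The autosomal peaks near tRNA, snoRNA or snRNA genes, which the rule leaves out, were denser than those at divergent promoters: there were 297, or 373 per Mb, with a median signal of 21.5 and 28.6% in the authors' thresholded list. Of the 25 strongest autosomal peaks 11 were at divergent promoters, against 7 at 1-strand promoters, and of the 500 strongest 102 (20.4%) were, against 153.

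Signal, the authors' own value for each peak, is on a scale that the sources do not state, and it was used only within a list. It had a median of 18.8 at the 659 divergent promoter peaks and 15.6 at the 2863 peaks of 1-strand promoters. The 90th percentile was 43.6 at divergent promoters and 26.7 at 1-strand promoters. A signal of 50 or more was reached by 50 divergent promoter peaks (7.59%), against 62 peaks of 1-strand promoters (2.17%). The authors' list thresholded for reproducibility between replicates held 109 of the 659 (16.5%), against 5.73% of the peaks at 1-strand promoters, 5.43% of all autosomal peaks and 6.0% of the whole pooled list. The thresholded peaks were the 721 strongest of the pooled list, so this share repeats the difference in signal and is no second measure of it. The weakest divergent promoter peak inside the thresholded list had a signal of 34.1 and the strongest outside it 33.9, so the edge cuts through a continuous range.

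**Figure D1:**
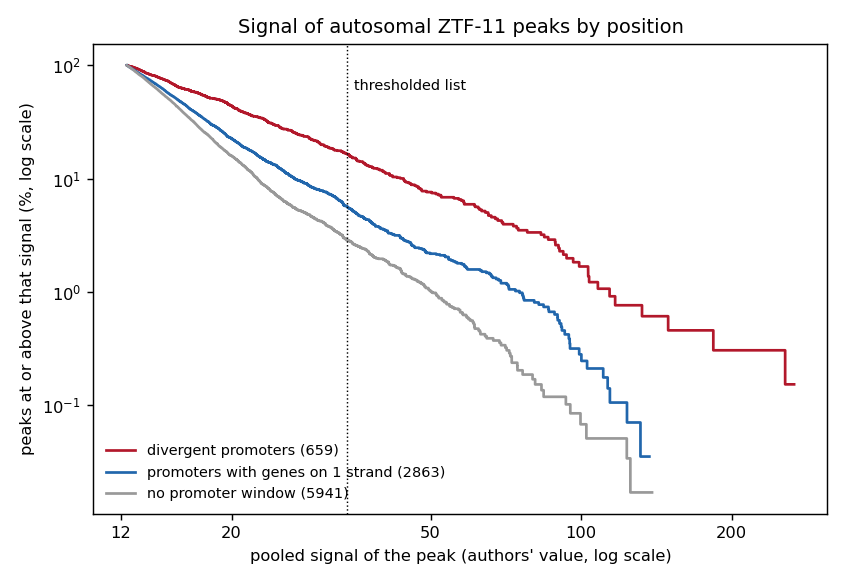
Share of autosomal peaks (%, log scale) at or above each pooled signal (authors' value, log scale) for divergent promoters, 1-strand promoters and bases in no promoter window, with the number of peaks in brackets. The line of divergent promoters lies above both others over the whole range, and the dotted line marks the lower edge of the thresholded list, 34.1, which 109 of the 659 reached.

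The libraries can be read apart in each replicate's own relaxed list of 30000 peaks, which includes background. In replicate 1, 618 of as many of the strongest peaks as the pooled list holds were at autosomal divergent promoters, and 17.0% of the 618 were among its 721 strongest, against 5.5% of its peaks at 1-strand promoters. In replicate 2 there were 638, of which 14.7% were among its 721 strongest, against 5.6% at 1-strand promoters. Median signal in replicate 1 was 12.4 at divergent promoters and 10.8 at 1-strand promoters, and in replicate 2 it was 9.54 and 8.32. The order of the classes was thus the same in each library.

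Over the whole pooled list, more of the peaks at divergent promoters than at 1-strand promoters were found in both libraries. Of the 659 pooled peaks 485 (73.6%) overlapped a peak in both relaxed lists by at least 1 bp, against 60.7% at 1-strand promoters. With each relaxed list cut to its 12024 strongest peaks, 310 (47.0%) overlapped a peak of both, against 27.9% at 1-strand promoters. A further 164 overlapped one in replicate 1 only, 138 in replicate 2 only, and 47 in neither. The thresholded list was itself made from both replicates, and all 109 overlapped peaks of both relaxed lists, as did all 164 at 1-strand promoters. Of the 109, 56 (51.4%) were among the 721 strongest of both, against 52.4% of the 164. Thresholded peaks thus showed no such difference. Overlap with both relaxed lists fell with signal among other divergent promoter peaks. It was 92.3% at 20 or more, 68.7% at 15 to 20 and 44.9% below 15. The part of signal in the difference over all peaks was not tested. Ranks within the libraries agreed only in part: over the 485 peaks with a value in each, Spearman's rho of the replicates' signals was 0.434, and over the 109 it was 0.418. These correlations describe peaks that share their libraries and were chosen on pooled signal.

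The highest signal, 267, lay between ecps-1, which encodes an Ecm29-type proteasome component, and atx-2, homologous to ataxin-2 and a regulator of translation (chrIII:10461201-10461445). It was 142 in replicate 1 and 119 in replicate 2, and ranked 4 in both. Its summit stood 63 bp upstream of atx-2 and 775 bp upstream of ecps-1. A signal of 184 lay between K01G5.10, a haloacid dehalogenase-like gene, and tasp-1, a taspase homologue (chrIII:10759134-10759329). It was 105 in replicate 1 and 80.3 in replicate 2. Here too the summit was close to one end, 67 bp upstream of tasp-1 and 718 bp upstream of K01G5.10.

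Some of the 25 strongest peaks lay beside genes of mitochondrial proteins, a grouping made after the pairs were seen and not counted. A peak of signal 132 lay 65 bp upstream of idhg-1, a subunit of mitochondrial isocitrate dehydrogenase, and 602 bp upstream of mlcd-1, malonyl-CoA decarboxylase (chrIII:4568659-4568827), with 71.5 in replicate 1 and 65.5 in replicate 2. Only 92 bp separate ears-2, a mitochondrial glutamyl-tRNA synthetase, from uncp-18, a syntaxin-binding protein of vesicle release (chrIV:390431-390553), where the signal was 117, with 70.0 in replicate 1 and 50.4 in replicate 2. The summit at dnj-29, a J-domain chaperone gene, and ndua-2, a complex I subunit, also lay in a window of fld-1 (signal 108). It gave 56.7 in replicate 1 and 50.1 in replicate 2. The chaperonin pair hsp-60 and Y22D7AL.10, which encodes the mitochondrial 10-kDa heat shock protein, partners in one folding machine, shared a peak of signal 92.1 (chrIII:1618979-1619334). It gave 48.7 in replicate 1 and 44.5 in replicate 2, with its summit 228 bp from Y22D7AL.10 and 585 bp from hsp-60.

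Further genes of ribosomes and translation stood beside peaks among the 25 strongest. The peak between rpl-15, a protein of the large ribosomal subunit, and K11H12.8 had a signal of 96.5, that between ifet-1, a translational repressor, and rps-1, of the small subunit, 88.7, and that between rpl-20 and Y17G9B.5 78.1. Replicate signals were 44.6 and 49.8 at rpl-15, 56.6 and 32.3 at rps-1, and 34.7 and 43.9 at rpl-20, in the order replicate 1 and replicate 2. A peak of 86.0 lay between larp-1, a La-related RNA-binding protein, and wip-1, a WASP-interacting protein homologue, and it was the one of the 25 with the lowest value in replicate 2, 29.5. In replicate 1 it gave 56.8. The peak between erfa-3, an eRF3-like release factor gene, and math-33, a USP7-type deubiquitinase gene, had a signal of 74.9. That between gei-6 and krr-1, which acts in assembly of the small ribosomal subunit, had 90.1.

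The remaining strong pairs had other roles. The E3 ligase gene rnf-121 and the SAP18 homologue C16C10.4 shared a peak of 114, spe-48 and Y51F10.11 one of 104, and nhl-2, a TRIM protein of the microRNA pathway, and tag-340 one of 93.6. A signal of 90.6 lay between dad-1, a subunit of the oligosaccharyltransferase that glycosylates new proteins, and tre-1, a trehalase gene. The peak between dvc-1, a DNA-dependent protease gene, and ima-1, an importin alpha gene, had 88.9, and that between drr-2, an RNA-binding protein gene, and set-16 had 84.4. The peak at uba-5, of the UFM1 pathway, and clec-53 (74.3) was the only one of the 25 with its summit in an intron, and the other 24 summits were intergenic. The peak labelled with the chemoreceptor gene sre-1 (103) stood 926 bp from sre-1 and 68 bp from B0495.9 on the other side.

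**Figure D2:**
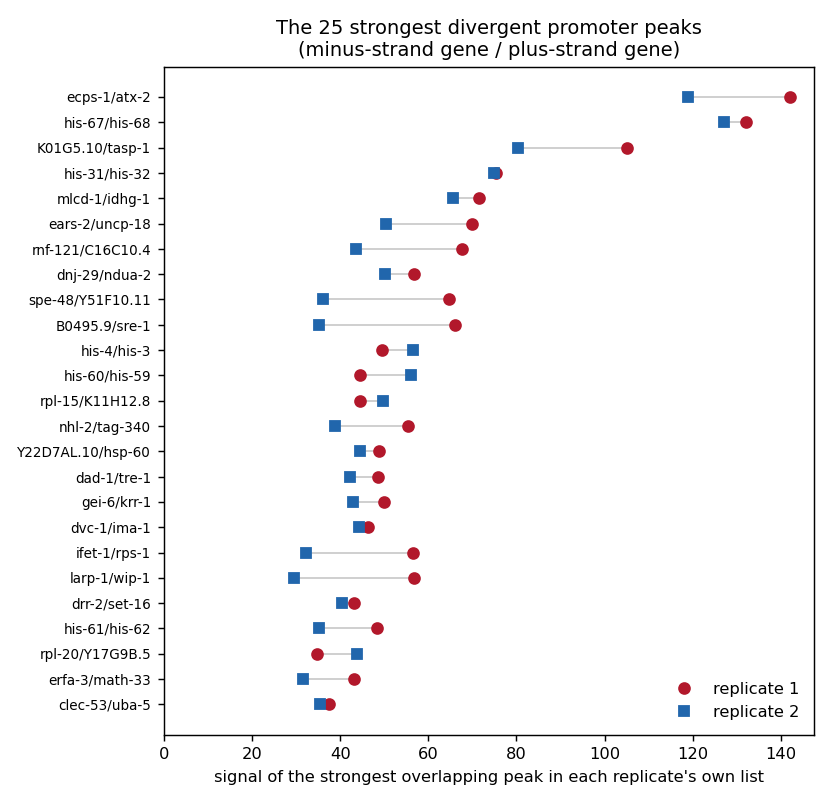
Signal of the strongest overlapping peak in each replicate's own list for the 25 divergent promoter peaks of highest pooled signal, in order of pooled signal from the top, with circles for replicate 1 and squares for replicate 2. Values run between 29.5 and 142, the peaks at ecps-1/atx-2 and his-67/his-68 stand apart in both libraries, and the scales of the lists are those of separate calls.

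Histone genes gave the second highest signal and 5 of the 25 strongest peaks. Replication-dependent histones of the worm are encoded in clusters in which pairs of core histone genes are read divergently from a short shared promoter. The peak between his-67 and his-68 had a pooled signal of 256, with 132 in replicate 1 and 127 in replicate 2, and its summit also lay in a window of alg-5, an Argonaute gene. Between his-31 and his-32 the signal was 149, with 75.4 in replicate 1 and 75 in replicate 2. Between his-4 and his-3 it was 103, with 49.4 and 56.5, and between his-60 and his-59 it was 99.2, with 44.6 and 56.0. The peak between his-61 and his-62 had 83.1, with 48.3 in replicate 1 and 35.2 in replicate 2. A further 4 histone pairs had weaker peaks outside the thresholded list, his-6/his-5 with 30.7, his-63/his-64 with 30.1, his-2/his-1 with 24.4 and his-35/his-41 with 23.1. All 9 summits lay between facing 5′ ends that were 237 to 369 bp apart.

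Whether a histone pair had a peak went with whether its promoter sequence is unique in the genome. There were 30 divergent promoters between 2 histone genes less than 500 bp apart, and 9 (30.0%) had a peak, against 22.8% of all 2714 autosomal divergent promoters. The copy content of each was taken as the share of the 32-bp words in the central 101 bp that also occur elsewhere in the reference genome. All 7 histone pair promoters with no such word had a peak, and 5 of them a thresholded one. Of 3 with 11.4% to 31.4% of their words elsewhere, 2 had a peak, the exception being his-8/his-7. None of the 20 with every word elsewhere had one. Reads from such copies cannot be placed at a single locus, and how the authors treated them is not given in the sources used here, so that the absence of a peak at the copied pairs and a loss of their reads cannot be told apart.

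The same held, less sharply, for divergent promoters without a histone pair. Of 2390 with no word elsewhere 587 (24.6%) had a peak, and of 127 with 50% of their words or more elsewhere 9 (7.09%) did. Of the 109 thresholded summits none had a 32-bp word within 50 bp that occurs elsewhere, and 18 of the 659 did. The histone names are those of the annotation, which gives several copies the same name.

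Histone pair promoters also shared sequence. The octamer GGACACAT, on either strand within 150 bp of the summit, was found at 6 of the 9 histone pair peaks, his-67/his-68, his-61/his-62, his-60/his-59, his-31/his-32, his-6/his-5 and his-4/his-3. These are 66.7% of them, against 10 of the 659 (1.52%) and 1.19% of the peaks of 1-strand promoters. Within 150 bp of the middle it was also in 14 of the 21 histone pair promoters without a peak (66.7%), and in 1.22% of all divergent promoters. Of these 21, 20 had every 32-bp word of their centre elsewhere, so they are largely copies and not separate observations. The octamer was picked after the sequences were read, and a match is a description, not a site.

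Among all 2714 autosomal divergent promoters 618 (22.8%) had at least 1 peak, and 109 (4.02%) a thresholded one. Most of the 618 had a single peak, 579 of them, and 37 had 2. The remaining pair, pde-6/Y95B8A.6 and ZC518.8/ccr-4, had 3 each, none of them thresholded. No promoter had more than 1 thresholded peak. Because the windows of further genes can overlap, 49 of the 659 summits lay in windows of 3 or 4 genes and 610 in those of 2, for 1281 distinct genes in all.

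Chromosomes differed in how many divergent promoters had a peak. The share was 31.7% on III (141 of 445), 27.9% on I (139 of 499), 22.0% on IV, 21.9% on II and 15% on V (110 of 731). The thresholded share of the peaks ran between 19.6% on I and 12.1% on V. At 1-strand promoters it ran between 6.68% on I and 4.12% on V, so that V was lowest in each class. Position along the chromosome added little: 42.2% of the peaks were in the middle one of 3 equal parts of their chromosome, against 40.7% of the bases that meet the rule.

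Within these promoters most summits, like most bases that meet the rule, sat between the facing 5′ ends. A summit was between them at 512 of the 659 (77.7%) and downstream of one at 147, while 68.2% of the bases that meet the rule are between and 31.5% downstream of one. Among the 109 thresholded peaks 101 (92.7%) were between. Median signal was 19.8 between the ends and 15.5 downstream of one, and 19.7% of the peaks between were thresholded, against 5.44% of those downstream. The thresholded peaks downstream of an annotated end were 8 in number. With trans-spliced transcripts the annotated ends carry an unknown offset.

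By annotation, 458 of the 659 summits (69.5%) were intergenic, 67 in coding exons, 65 in introns, 65 in 5′ UTRs and 2 in 3′ UTRs. Of the thresholded summits 93 (85.3%) were intergenic and 2 in coding exons. Non-coding genes other than the classes left out were within 250 bp of some: 66 summits, 18 of them thresholded, were that close to a gene annotated as ncRNA, 8 to a piRNA gene and 4 to a miRNA gene. The thresholded one near a miRNA gene, with a signal of 69.8, lay between eef-1A.1, translation elongation factor 1 alpha, and rfc-4, a clamp loader subunit of DNA replication. No share of the bases that meet the rule, or of other peaks, was set beside these annotation counts. Whether closeness to non-coding genes or an intergenic summit is usual at such promoters can thus not be read from them.

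Peaks were found mainly where the facing ends were less than 1000 bp apart. The distance between the ends had a median of 550 bp over the peaks, against 703 bp over the bases that meet the rule. Ends 200 to 499 bp apart held 36.7% of the peaks, and 41.3% of the thresholded ones, on 23.2% of the bases. Ends 1000 bp or more apart held 14.9% of the peaks, and 11.0% of the thresholded ones, on 26.0% of the bases. The summit's distance to the nearer end had a median of 133 bp, against 152 bp over bases, and 151 bp for thresholded peaks. Summits were not drawn to the midpoint: of those between the ends 45.5% were in the central one of 3 equal parts, against 44.5% of bases. In 353 the plus-strand end was the closer, in 303 the minus-strand end. Almost all peaks, 646, had the deposited width of 356 bp, and the 13 narrower ones were all thresholded, with signals of 83.1 or more.

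**Figure D3:**
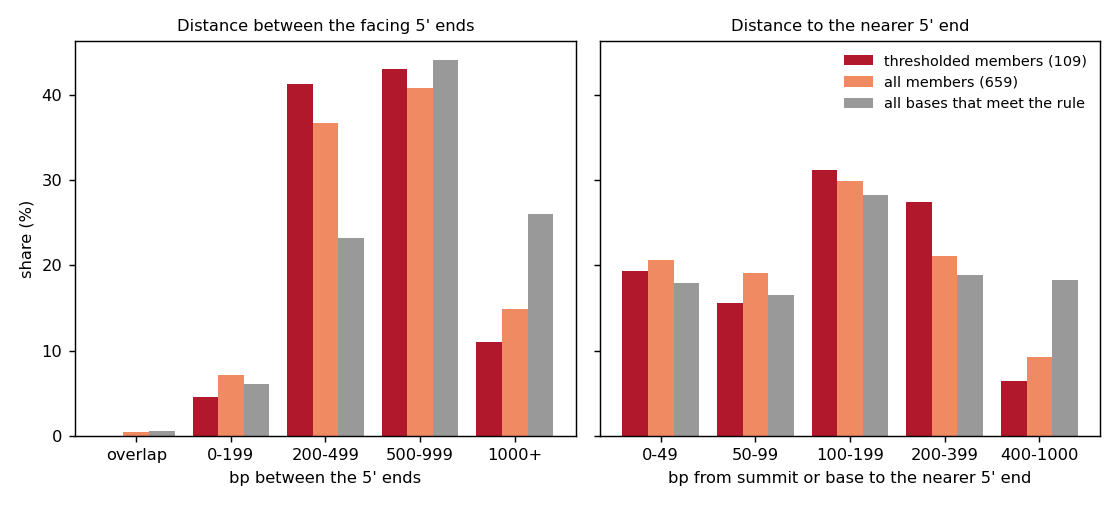
Share (%) of thresholded divergent promoter peaks (109), of all 659, and of all bases that meet the rule, by bp between the facing 5′ ends (left) and by bp from the summit or base to the nearer 5′ end (right). Peaks exceed bases at 200 to 499 bp between the ends (41.3% and 36.7%, against 23.2%) and fall short of them at 1000 bp or more (11.0% and 14.9%, against 26.0%).

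Summits lay in GC-rich sequence, the more so the stronger the peak. Median GC content of the central 101 bp was 42.6% over the 659 and 51.5% over the thresholded 109, against 34.7% in windows of the same length centred 250 bp to each side of the 659 and 33.7% at the middle of divergent promoters without a peak. Peaks of 1-strand promoters had 38.6%, and the thresholded ones among them 49%. GC content was 44.6% at peaks of signal 20 or more outside the thresholded list, 39.6% at signals of 15 to 20 and 35.6% below 15. The part that GC content itself plays in the signal was not tested.

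The GC-rich word GGGCGG, known as the core of Sp1-type sites in vertebrates, was one of 17 short words searched and was more frequent at strong divergent promoter peaks than at any other set of windows compared. On either strand within 50 bp of the summit it was found at 48 of the 659 (7.28%) and at 26 of the 109 thresholded (23.9%). Among the thresholded peaks of 1-strand promoters it was found at 10.4%, at the middle of divergent promoters without a peak at 2.19%, and in windows of the same length centred 100 bp upstream of all autosomal 5′ ends at 3.38%. The 48 had a median signal of 36.1 and the 611 without it 17.8. Among the 109 thresholded peaks, in bins of 50 bp, the word was at 17.4% in the bin from the summit to 50 bp. It was at 7.34% in the bin on the other side of the summit, and at 2.75% or less beyond 100 bp on either side. Within 25 bp of the summit 9 of the 109 (8.26%) had it, so most of the 26 had it only further out. Among the 550 other members the word was at 1.64% in the bin from the summit to 50 bp. Their highest share was 3.09%, in the bin 50 to 100 bp on the other side of the summit. Lines for ecps-1/atx-2, K01G5.10/tasp-1 and his-60/his-59 show it.

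The word was more frequent in GC-rich windows of each set compared. In windows of 50% GC or more, GGGCGG was found at 32.2% of the thresholded divergent promoter peaks (19 of 59), 16.5% of the thresholded peaks of 1-strand promoters and 20.7% of divergent promoters without a peak (18 of 87). Each library alone gave the same order among its own 721 strongest peaks: 18.1% at divergent promoters against 10.8% at 1-strand promoters in replicate 1, and 19.1% against 9.49% in replicate 2. These are the same libraries as those of the pooled list.

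Other words went the other way or did not set divergent promoters apart. GAGAGA was at 15.6% of the thresholded divergent promoter peaks, against 28.7% of the thresholded peaks of 1-strand promoters and 9.2% of all promoters. CTGCGTC was at 9.17%, against 11.6% and 1.93%. The Myt1-family core AAGTT was scarce at strong summits: it was at 11.0% of the thresholded divergent promoter peaks and 20.2% of all 659, against 30.3% in the windows beside the thresholded ones, 32.9% of all promoters and 37.9% of divergent promoters without a peak. Thresholded peaks of 1-strand promoters had AAGTT at 8.54%, so its scarcity was not particular to divergent promoters. The longer AAAGTTT, which contains AAGTT, was at 3.67% of the thresholded divergent promoter peaks. It was at 1.83% of the thresholded peaks of 1-strand promoters and 8.2% of all promoters. These low shares of AT-rich words stood in the windows of highest GC content, and their separate part was not tested. TTTCAG, the splice acceptor word, was at 3.67% of the thresholded divergent promoter peaks, against 1.83% of the thresholded peaks of 1-strand promoters and 15.5% of all promoters. A word's presence or absence in these windows says nothing of whether a factor binds there.

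Reading the 12 strongest sequences gave further words, chosen after they had been seen. The palindrome TTGCAA was at 27 of the 109 thresholded divergent promoter peaks (24.8%), against 8.36% of the other members, 7.93% of the thresholded peaks of 1-strand promoters, 5.5% of the windows beside and 5.12% of all promoters. Without the 12 sequences in which it was noticed it was at 22 of 97 (22.7%). The word is itself AT-rich, and in windows of 50% GC or more it was at 18.6% of the thresholded divergent promoter peaks, against 7.59% of the thresholded peaks of 1-strand promoters and 4.6% of divergent promoters without a peak. Without the 12 the first of these shares was 15.7% (8 of 51). In each library alone it was at 21.9% of divergent promoter peaks among the 721 strongest, against 10.8% at 1-strand promoters (replicate 1), and at 24.5% against 8.23% (replicate 2). The shares in each library were taken with the 12 loci kept, so they are no separate check of the word. TTGCAA and GGGCGG stood together at 10 of the 109, or 9 of 97 without the 12, against 3.66% of thresholded peaks of 1-strand promoters and 0.226% of all promoters.

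GTGCGC and the palindrome GCGCGC, which can overlap each other, followed the same pattern in part. GTGCGC was at 28.4% of the thresholded divergent promoter peaks, 26.8% without the 12 read, against 12.8% of the thresholded peaks of 1-strand promoters and 2.2% of all promoters. GCGCGC was at 16.5%, or 13.4% without the 12, against 12.8% and 1.28%. In windows of 50% GC or more GTGCGC was at 37.3%, or 35.3% without the 12. It was there at 13.9% of the thresholded peaks of 1-strand promoters and 8.05% of divergent promoters without a peak. GCGCGC was in such windows at 18.6%, or 15.7% without the 12, against 16.5% and 12.6%, so that it hardly set divergent promoters apart. At least 1 of these words, GGGCGG and TTGCAA included, was at 62 of the 109 (56.9%), or 54.6% without the 12. It was at 32.3% of the thresholded peaks of 1-strand promoters and 11.3% of divergent promoters without a peak. Of the printed lines only those of ecps-1/atx-2 and B0495.9/sre-1 hold, in lower case, a further likeness, GGC followed after 3 to 6 bases by TGCAA or TGCGA. On either strand it was at 18.3% of the 109, 15.5% without the 12. Thresholded peaks of 1-strand promoters had it at 5.49% and all promoters at 0.834%.

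**Figure D4:**
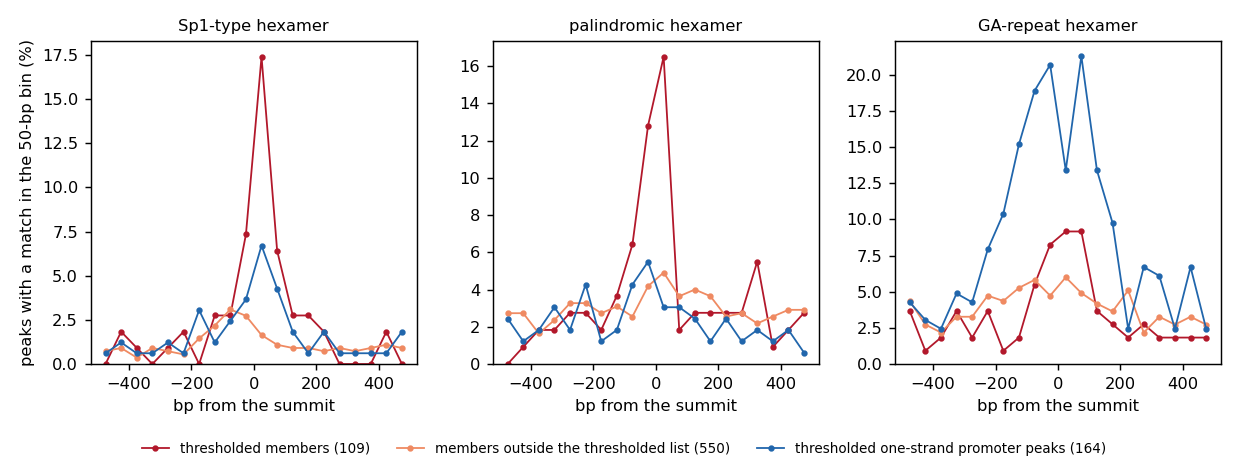
Share of peaks (%) with a match in each 50-bp bin by distance from the summit (bp), for the Sp1-type hexamer (left), the palindromic hexamer chosen after the sequences were read (middle) and the GA-repeat hexamer (right), each on its own scale. The first is highest at thresholded divergent promoter peaks, in the bin from the summit to 50 bp on one side (17.4%, against 7.34% on the other side). The second is highest in the same bin of these peaks (16.5%, against 12.8%), and the third is highest at thresholded 1-strand promoter peaks.

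Most lists of genes with basic cell functions had larger shares of genes with a divergent promoter peak than all genes had. Histones, counted with their copied promoters, stood near the share of all genes for peaks of any strength. So did cell cycle genes and nuclear hormone receptor genes. Over all 5447 autosomal genes with a divergent promoter 1281 (23.5%) had a peak in a window and 229 (4.2%) a thresholded one, and each list is given against these shares. Of 51 cytosolic ribosomal protein genes with a divergent promoter 38 (74.5%) had a peak and 10 (19.6%) a thresholded one. Beside those named above, rpl-12 had a signal of 65.2 and rps-19, which lies opposite hsr-9, a 53BP1 homologue, one of 63.2. The ribosomal protein genes also faced each other: rpl-39 and rps-30 shared a thresholded peak of 34.9, and rps-10 with rpl-24.1 (31.9) and rps-14 with rpl-36 (20.5) shared peaks outside that list. The median of each gene's highest signal was 23.6 in this list and 19.4 over all 1281 genes.

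Chaperone genes had the largest share of thresholded peaks among the lists of more than 5 genes, 8 of 25 (32%), with 18 (72.0%) having any. Beside dnj-29 and hsp-60 these were hsp-110 (61.2), an Hsp70-type exchange factor, cct-8 (47.7), a subunit of the cytosolic chaperonin, hsp-90 (41.4), and the J-domain genes dnj-12 (40.6), dnj-13 (35.6) and dnj-19 (34.5). By rank within each list the replicates were far apart at some of them: hsp-90 ranked 306 in replicate 1 and 2503 in replicate 2, and dnj-12 ranked 283 and 7602. The peak of hsp-110 was shared with rpn-3, a subunit of the proteasome lid. Of 24 proteasome genes 13 (54.2%) had a peak and 2 a thresholded one, rpn-3 and rpn-7 (48.0).

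Of 21 respiratory chain genes 15 (71.4%) had a peak and 3 a thresholded one, cox-6B (68.2) and cox-5B (45.7), both of cytochrome c oxidase, and atp-3 (36.7), of ATP synthase. The peak at cox-6B lay also in the window of nduc-2, of complex I. Mitochondrial ribosomal protein genes had peaks at 16 of 30 (53.3%). Of these 1, mrpl-12 (34.9), was thresholded, which is 3.33% of the 30, against 4.2% of all genes with a divergent promoter. The peaks at mrps-34 (30.9), mrps-7 (30.7) and mrpl-39 (30.6) lay below the edge of the thresholded list. Of 34 genes for translation factors and tRNA synthetases 19 (55.9%) had a peak and 4 a thresholded one: ears-2, eef-1A.1, iff-2 (62.3), an eIF5A gene, and eif-3.D (45.2), of the eIF3 complex. Of 22 splicing genes 15 (68.2%) had a peak and 3 a thresholded one, the SR protein genes rsp-1 and rsp-2, which face each other across one peak (65.3), and prp-19 (41.4). RNA polymerase genes had peaks at 6 of 9, none thresholded, the highest at rpb-7 (21.9) and rpb-12 (21.1).

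The DREAM complex represses cell cycle genes in resting cells, and 4 of its 5 genes with a divergent promoter had a peak, all thresholded. They were lin-54, its DNA-binding subunit, with 65.2, lin-53, a histone-binding protein, with 45.6, efl-1, its E2F protein, with 42.0, and lin-35, the retinoblastoma homologue, with 40.6. In replicate 1 they had 43.9, 29.1, 17.8 and 22.8, and in replicate 2 16.2, 16.3, 22.3 and 17.3. Each of these peaks belongs as much to the gene opposite: the summit at lin-54 was 359 bp upstream of it and 34 bp upstream of rpl-12, lin-53 faces nra-2, efl-1 faces fbxa-90 and lin-35 faces vps-51. Cell cycle and replication genes had peaks at 5 of 18 (27.8%), with cdk-9 (55.7), an elongation kinase gene, alone thresholded, and cyb-3 at 22.0 and cye-1 at 16.6. Secretion and traffic genes had peaks at 18 of 42 (42.9%) and thresholded ones at 7 (16.7%), the highest at vps-32.1 (58.3), an ESCRT-III gene, rab-7 (43.5), of late endosomes, vps-51 (40.6), of a tethering complex, and sec-61.B (40.3), of the translocon. By rank within each list the replicates were far apart at the thresholded peaks of rab-11.1 (37.3), which ranked 19210 in replicate 1 and 381 in replicate 2, and of rab-5 (34.7), which ranked 18482 and 252.

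Lists of other kinds of gene are set against the same shares, 23.5% and 4.2%. Of 267 genes in the list matched by chemoreceptor-type names 11 (4.12%) had a peak and 3 (1.12%) a thresholded one, at sre-1 (103), sri-5 (52.5) and srrt-1 (46.5). Their neighbours were B0495.9, rsr-1 and let-504, and by RefSeq srrt-1 is a Serrate homologue, so the name pattern also takes in genes of other roles. Neuropeptide genes had peaks at 2 of 16, nlp-4 (16.6) and nlp-40 (14.2), and collagen genes at 6 of 43 (14.0%), the highest at col-2 (23.6) and col-71 (23.6), with none thresholded in either list. Nuclear hormone receptor genes had peaks at 8 of 45 (17.8%), 1 of them thresholded, nhr-47 (34.5), which shares its peak with dnj-19. Histone genes had peaks at 18 of 63 (28.6%) and thresholded ones at 10 (15.9%), the highest list median, 83.1. The histone share counts the copied pair promoters described above. None of the 20 with every word elsewhere had a peak, and all 7 with no such word had one.

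**Figure D5:**
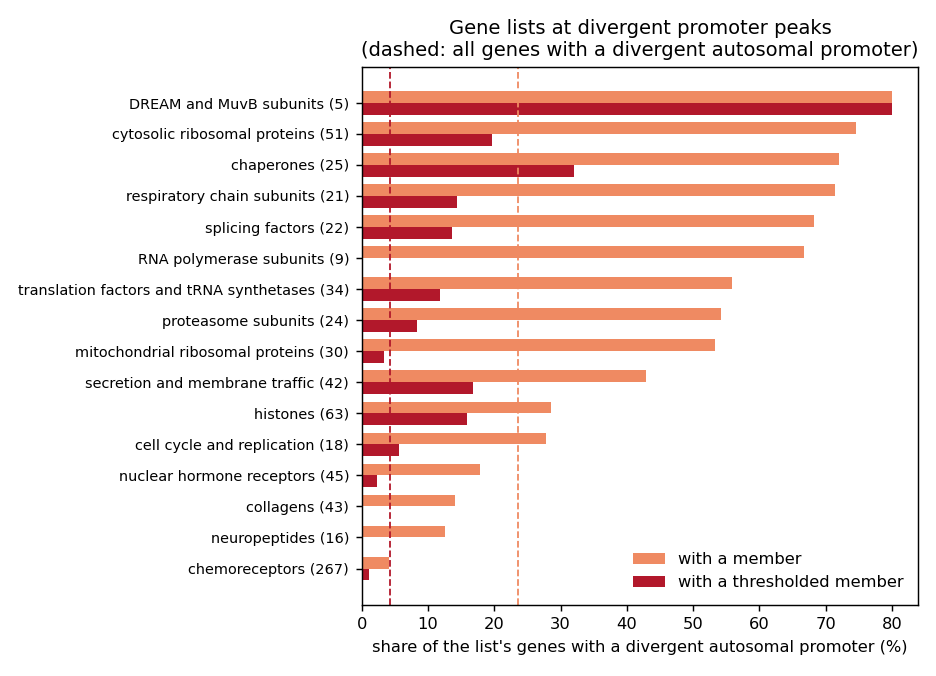
Share (%) of each list's genes with a divergent autosomal promoter (number in brackets) that had a divergent promoter peak in a window, and that had a thresholded one. Dashed lines give all such genes, 23.5% and 4.2%. Lists of chaperones, cytosolic ribosomal proteins and the respiratory chain lie above both lines, those of chemoreceptors, neuropeptides and collagens below both.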

How the data were processed

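ChIP-seq peak lists of ce11 were used as the authors deposited them, 1 relaxed list per replicate, 1 pooled over both replicates and 1 thresholded by the irreproducible discovery rate, per the deposited listing of files. The sources used here do not give the aligner, the peak caller, their versions or the treatment of multiply mapping reads, and read depth is unknown, so no value has a counting interval. The deposited signal of each peak was used within its list only. The deposited −log10 q-value was read and used in no comparison, and summits are the deposited offset from the peak start. Lists of ce10 were not used.

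The rule was applied in Python 3.11.15 (numpy 2.4.6, pandas 2.3.3) with the WBcel235 annotation of Ensembl release 115 and the RefSeq genome, the same sequence as ce11, and checked on planted summits. A divergent promoter was a merged stretch of bases in windows of genes on both strands, and eligible bases are those that meet the rule. Regions of 1 list are not replicates, so no test was run and every share is a description.

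Named genes were those at the 25 strongest members, up to 4 with the highest signal per list, and pairs of 1 list. Names outside this rule, among them further thresholded chaperone genes, traffic genes and the strongest neighbours, were chosen after their values were seen. Members and lists were chosen with earlier results of these data known. Lists matched gene names, RNA polymerase genes by rpoa- where rpa- had been written down, since rpa- names other genes. Alternatives were other windows, gene records, stronger peaks, other overlaps, motif windows and each replicate alone. Words printed in capitals other than GGGCGG, GC-rich windows, copy content and the replicates' own strongest peaks were added after the data were seen.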

Additional observations from a re-analysis of the deposited data

How the results depend on the processing

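With windows of 500 bp upstream to 100 bp downstream there were 368 members, 70 of them thresholded, with a median signal of 20.1, 83.2% between the facing ends, a peak at 19.7% of divergent promoters and 724 genes. With 2000 bp to 500 bp there were 1294, with 16.8, 69.3%, 29.0% and 11.2% thresholded. Peaks at or above the pooled median signal gave 23.1, 81.8%, 15.9% and 24.5%. The number of members follows from the windows and the filter themselves, and the cause of the other shifts was not tested. Without replicate 1 or replicate 2 the remaining library's own list gave 618 to 638 members, a median signal of 9.54 to 12.4 on its own scale, 75.9% to 77.4% between the ends, peaks at 21.2% to 21.4% of promoters and 14.7% to 17.0% among its 721 strongest. The share found in both replicates was 34.9% with summits within 100 bp, 39.3% with 50% reciprocal overlap and 73.6% over the full relaxed lists. Motif windows of 25 and 100 bp on each side gave 10.8% and 40.4% for AAGTT, 4.7% and 19.7% for GAGAGA, 2.28% and 8.04% for CTGCGTC, and 3.34% and 11.8% for GGGCGG, which was at 23.6% of members in windows of 50% GC or more, a setting chosen after the data were seen. Using gene records only, keeping the 16 excluded peaks, or the nearest end on each strand left every value compared within the limits set. Over all alternatives, gene lists included, 112 values were compared, of which 53 stayed within the limits and 59 moved beyond them. The 16 gene lists were recounted with the nearest end and with the narrow window, and 26 of these 32 recounts stayed within 1.5 times. With the nearest end, which kept 1233 of the 1281 genes, all 16 did, as that setting could change little. With the narrow window 6 of the 16 did not: splicing 6, cell cycle 3, traffic 9, chemoreceptors 5, neuropeptides 0 and nuclear receptors 3 genes. The recounts are of genes, so they do not test the shares given for each list. No paired analysis was possible because there is 1 group.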
